A study of Mus musculus with 12 samples.

Results

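RNA sequencing of monocyte preparations from mouse meninges was used to compare MDMA with vehicle after chronic stress. The comparison rests on 6 of the 12 libraries in the series, 3 titled as given MDMA and 3 as given vehicle. All were from male C57BL/6J mice that went through 18 days of restraint, then received MDMA or vehicle and were left for 24 hours before tissue was taken. The vehicle group is therefore a stressed group too, and no library of an unstressed mouse enters here. Cells were enriched with a magnetic monocyte isolation kit, and libraries were prepared from 5 ng of total RNA, per the labels' protocols. The sources used here give no ages, doses or route of administration. The labels do not say whether each library is a separate animal or a pool, and p-values below describe only how far these samples spread, which can be partly technical. The deposited table listed 55401 Ensembl gene identifiers. Of these, 29018 had a count in any of the 6 libraries and 12890 passed a filter on low counts and were tested, 12094 of them coding (antigen receptor segments included) and 792 non-coding genes or pseudogenes. A further 4 were not in the annotation used for names, and 323 of the tested genes had no RefSeq entry.

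MDMA acts on monoamine transporters, so that serotonin, noradrenaline and dopamine leave nerve terminals. Monocytes are blood cells made in bone marrow that enter tissues and can become macrophages or dendritic cells. The meninges hold resident macrophages beside fibroblasts, vessels and lymphocytes, and channels in the skull connect them with marrow, where neutrophils, B cells and monocytes are formed. The tissue also lies against skull bone on its outer side and close to the choroid plexus, the epithelium that makes cerebrospinal fluid.

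The vehicle libraries were less alike than the MDMA libraries and held fewer genes. They had 3623830, 807725 and 1954222 gene counts in replicates 1, 2 and 3, against 3567094, 2859534 and 5136953 in the MDMA libraries. At least 1 count was found for 12691, 15649 and 11039 genes in the vehicle libraries and for 24122, 19491 and 23973 genes in the MDMA libraries, a mean of 13130 ± 2336 against 22530 ± 2632 (SD, n = 3). Every MDMA library held more genes than every vehicle library (two-sided exact permutation p = 0.1, the smallest that 3 libraries against 3 can give). After each library was thinned to the smallest total, the means were 11840 ± 3370 and 17650 ± 1322 genes, still without overlap. Pearson correlations of log2(CPM + 1) across genes, which are not independent replicates, ran from 0.415 to 0.565 between vehicle libraries and from 0.765 to 0.919 between MDMA libraries. Mitochondrial genes took 12.55% of the counts in vehicle library 3 and 7.88% in MDMA library 2, above the other libraries. CPM here and below are counts per 1000000 counts of a library size multiplied by edgeR's TMM factor.

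**Figure D1:**
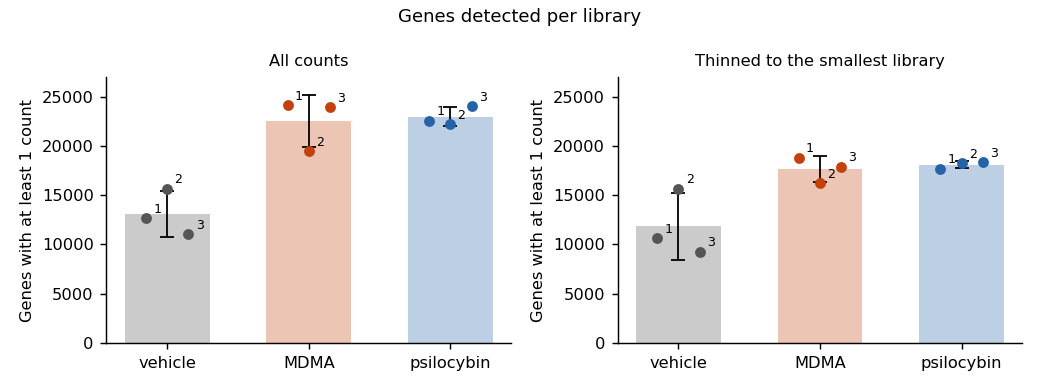
Genes with at least 1 count in each library (y axis, number of genes) for vehicle, MDMA and psilocybin, with all counts and with every library thinned to 807725 counts; points are libraries by number, bars the mean and error bars the SD (n = 3). With all counts the MDMA libraries sit between 19491 and 24122 genes, above the highest vehicle library at 15649.

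Across all genes, no gene passed edgeR's quasi-likelihood test after Benjamini-Hochberg adjustment (0 of 12890, 0.0%), and the smallest adjusted p was 0.456. At an unadjusted p under 0.05 there were 659 genes (5.11%, a share close to the threshold itself), 558 higher and 101 lower. Of the 558, 483 were at 0 in a vehicle library and counted in all MDMA libraries. Among genes counted in all 6 libraries, 174 (2.29%) had such a p. Without overlap between the groups, 1639 genes (12.7%) were higher in all MDMA than in all vehicle libraries and 374 (2.9%) were lower. Counts of list members without overlap are to be read against these shares. The median log2 difference of all genes was 0.10 with TMM scaling and -0.04 with DESeq2's size factors, but 1.089 with limma voom and 0.9333 with a replicate block, and differences below are to be read against this shift. In bulk libraries such as these, a change in the share of a cell type and a change in RNA per cell cannot be told apart.

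Genes were then separated by whether a vehicle library lacked them. Counts in all 6 libraries were found for 7616 of the tested genes (59.08%). Among these, 558 (7.33%) were higher and 372 (4.88%) lower in MDMA libraries without overlap, and the median log2 difference was -0.16. That median had the other sign with limma voom (0.2612), with sample quality weights (0.1948), with a replicate block (0.2328), without vehicle library 1 (0.002) and without both vehicle libraries 1 and 3 (0.061). The balance of directions moved with the scaling: 443 were higher and 526 lower with DESeq2's size factors, and 658 and 270 with unscaled library totals. A further 5169 genes were at 0 in 1, 2 or 3 vehicle libraries (3392, 1577 and 200 genes) and counted in all MDMA libraries. Of these, 1081 (20.91%) were higher without overlap, and none could be lower without overlap by construction. Their median log2 difference was 0.75, but 1.238, 4.213 and 1.711 without vehicle library 1, 2 or 3, 2.425 with limma voom and 3.064 with a replicate block. The reverse case was rare, with 12 tested genes at 0 in an MDMA library and counted in all vehicle libraries.

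**Figure D2:**
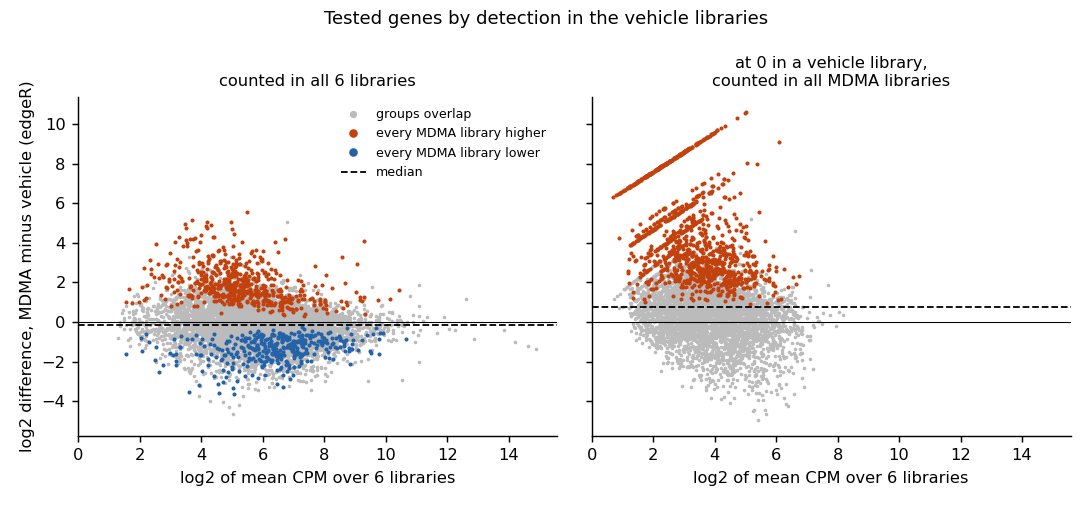
Log2 difference of MDMA minus vehicle (y axis) against log2 mean CPM (x axis) for genes counted in all 6 libraries and for genes at 0 in a vehicle library but counted in all MDMA libraries; each point is a gene and the dashed line is the median (-0.16 and 0.75). The diagonal edges are genes at 0 in all vehicle libraries, whose fitted value depends on the prior count and is no measured fold.

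Missing counts in vehicle libraries reached genes that are abundant elsewhere. Of genes with a median of at least 20 CPM in the other 8 stressed libraries, vehicle libraries 1, 2 and 3 were at 0 for 740, 61 and 1062, whereas MDMA libraries 1, 2 and 3 were at 0 for 0, 1 and 0. The 200 tested genes at 0 in all vehicle libraries had counts in every MDMA library by construction, because the filter requires it of such genes. Of these, 194 also had counts in every psilocybin library, which the filter did not require. Vehicle library 2, which had the fewest counts in all, had the fewest of these zeros among the vehicle libraries. Why the other vehicle libraries lack these genes was not tested.

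The coding genes at 0 in all vehicle libraries with the most counts in the lowest MDMA library were Slc30a4, Pygl, Lilrb4a, Gbp5, Cenpj and Nusap1. Ccr1, described with the chemokine genes, had as many counts in its lowest MDMA library as the last 2 of these. Slc30a4, which encodes a zinc transporter, stood at 34.9, 113.5 and 41.4 CPM in MDMA libraries 1, 2 and 3, at least 102-fold higher than vehicle against a floor of 3 counts over the group. Pygl, the liver form of glycogen phosphorylase that is also used by neutrophils, stood at 30.9, 73.2 and 53.6 CPM, at least 94.9-fold higher. For Slc30a4 and Cenpj (17.0, 72.8 and 20.1 CPM, at least 56.4-fold), MDMA library 2 was the highest by a wide margin. Lilrb4a, an inhibitory immunoglobulin-like receptor of myeloid cells, was even across MDMA libraries at 30.1, 29.8 and 29.8 CPM, at least 56.2-fold higher. Gbp5, an interferon-inducible guanylate-binding protein, stood at 18.5, 46.9 and 23.8 CPM, at least 50.5-fold higher. Each of the 6 had an adjusted p of 0.456 with edgeR. The psilocybin libraries also had counts of all of them, between 4.20 and 45.2 CPM.

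In GRCm38 (mm10) Slc30a4 spans 122681233 to 122702663 of chromosome 2 and Pygl spans 70190811 to 70231488 of chromosome 12, both transcribed from the minus strand. Counts are sums over the exons of each whole gene.

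The monocyte label was then set against defining markers. Classical monocyte markers were present in every MDMA library, while vehicle library 1 was at or near 0 for several. Ly6c2, the surface antigen that defines classical mouse monocytes, stood at 32.4, 20.5 and 43.4 CPM in MDMA and at 0, 22.8 and 39.2 CPM in vehicle libraries, so the groups overlapped. Ccr2, the chemokine receptor by which these cells leave the marrow, stood at 48.8, 63.9 and 104.5 CPM against 0.298, 14.8 and 26.4 CPM (log2 difference of 2.40 ± 1.41 SE, edgeR adjusted p = 0.9998). All MDMA values of Ccr2 lay above all vehicle values. Lyz2, lysozyme of monocytes, macrophages and neutrophils, stood at 597, 413 and 641 CPM against 351, 248 and 316 CPM, again without overlap (0.85 ± 0.52). Plac8 also lay higher in all MDMA libraries, and of the 11 tested classical monocyte genes these 3 were higher without overlap and 0 lower. Over all tested genes, 12.7% were higher and 2.9% lower. Of the 11, 4 were at 0 in a vehicle library. Of the 7 counted in all 6 libraries, 2 were higher, against 7.33% of all genes so counted. Summed over the list, classical monocyte markers reached 1616, 1229 and 2021 CPM in MDMA and 736, 714.5 and 1332 CPM in vehicle libraries, which overlap.

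Pan-myeloid genes gave a similar picture. Itgam, which encodes the CD11b integrin chain of myeloid cells, had 1 count in the vehicle libraries together and 93 in the MDMA libraries, a ratio of 42.0 (95% counting interval 7.35 to 1674, which covers counting error only). Cd68, a lysosomal protein of phagocytes, had 3 and 220 counts, a ratio of 33.1 (11.2 to 161.6). Coro1a, an actin-binding protein of leukocytes, stood at 69.1, 44.15 and 82.4 CPM in MDMA and at 19.95, 7.965 and 17.1 CPM in vehicle libraries. These were the 3 of 9 tested pan-myeloid genes higher without overlap, and none was lower, against 12.7% and 2.9% of all tested genes. Of the 9, 4 were at 0 in a vehicle library, and 20.91% of genes at 0 there and counted in all MDMA libraries were higher. Of the 5 counted in all 6 libraries, 1 (Coro1a) was higher, against 7.33% of all genes so counted. Ptprc, the pan-leukocyte antigen CD45, overlapped, with 134, 137 and 138 CPM in MDMA and 87.85, 48.9 and 381 CPM in vehicle libraries. Cx3cr1, the fractalkine receptor of patrolling monocytes and resident macrophages, was not tested. It had 285 counts in MDMA and 1 in vehicle libraries, a pooled ratio of 128.5 (22.9 to 5095). Because it failed the low count filter, not every MDMA library reached the cutoff. Its counts were therefore uneven across MDMA libraries, which the ratio and its interval do not show.

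Markers of other cell types took far more of the counts than monocyte markers did (sums of counts, not per gene length or cell). Choroid plexus markers summed to 40880, 34840 and 19980 CPM in MDMA libraries and to 139700, 60300 and 18620 CPM in vehicle libraries. Meningeal fibroblast markers summed to 8522, 12400 and 13400 CPM against 3165, 3849 and 10070 CPM. These sums exceed the classical monocyte sum in every library compared, so the preparations are described below as mixed.

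Neutrophil granule and calprotectin genes showed the largest median difference among the lists of immune cells with at least 10 genes tested. Ngp, neutrophilic granule protein, stood at 922, 330 and 815 CPM in MDMA libraries 1, 2 and 3 and at 97.1, 108.1 and 6.42 CPM in vehicle libraries. The lowest MDMA library was 3 times the highest vehicle library, and the log2 difference was 3.29 ± 0.96 (SE, edgeR adjusted p = 0.456). Camp, the cathelicidin antimicrobial peptide of secondary granules, stood at 325, 70.1 and 77.4 CPM against 18.2, 7.965 and 1.43 CPM (4.07 ± 1.19, adjusted p = 0.456). Both genes lie on chromosome 9 of GRCm38, Ngp at 110419747 to 110423012 and Camp at 109847379 to 109849617.

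S100a8 and S100a9 encode the 2 chains of calprotectin, an abundant protein of the neutrophil and monocyte cytoplasm. S100a8 stood at 449, 53.1 and 100.2 CPM in MDMA and at 4.765, 27.3 and 1.43 CPM in vehicle libraries (4.21 ± 1.31, adjusted p = 0.509). S100a9 stood at 228.5, 39.1 and 59.8 CPM and was even across vehicle libraries at 10.1, 13.7 and 13.5 CPM (3.13 ± 1.07, adjusted p = 0.644). In both genes MDMA library 1 was highest and MDMA library 2 lowest, above all vehicle libraries.

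Of 10 tested neutrophil genes, 7 were higher in all MDMA than in all vehicle libraries (Ngp, Camp, S100a8, S100a9, Elane, Lcn2 and Mmp9), none was lower, and the median log2 difference was 3.68. All 5 that were counted in all 6 libraries were among these 7. The exceptions, Ltf, Mpo and Csf3r, had fitted differences above 0 with overlapping groups. Over all tested genes 12.7% were higher and 2.9% lower, and over those counted in all 6 libraries 7.33% and 4.88%. Elane, the elastase of primary granules, stood at 56.4, 15.1 and 93.3 CPM in MDMA and at 13.1, 10.2 and 0.713 CPM in vehicle libraries. Mpo, myeloperoxidase of the same granules, stood at 125, 22.9 and 412 CPM against 0, 23.9 and 0.713 CPM, with vehicle library 2 just above MDMA library 2. The list holds genes of early granules (Elane, Mpo) beside late ones (Camp, Ngp, Ltf), but the surface receptors of mature neutrophils were scarce: Ly6g had at most 0.506 CPM and Cxcr2 at most 1.26 CPM in any MDMA library. Summed over all 16 listed genes, the neutrophil markers reached 2456, 649 and 2023 CPM in MDMA against 143, 208 and 139 CPM in vehicle libraries. With other scalings, thinning or a library left out, 6 to 9 of the 10 genes had no overlap. Among erythroid markers, 1 of 7 tested genes (Alas2) was higher without overlap.

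**Figure D3:**
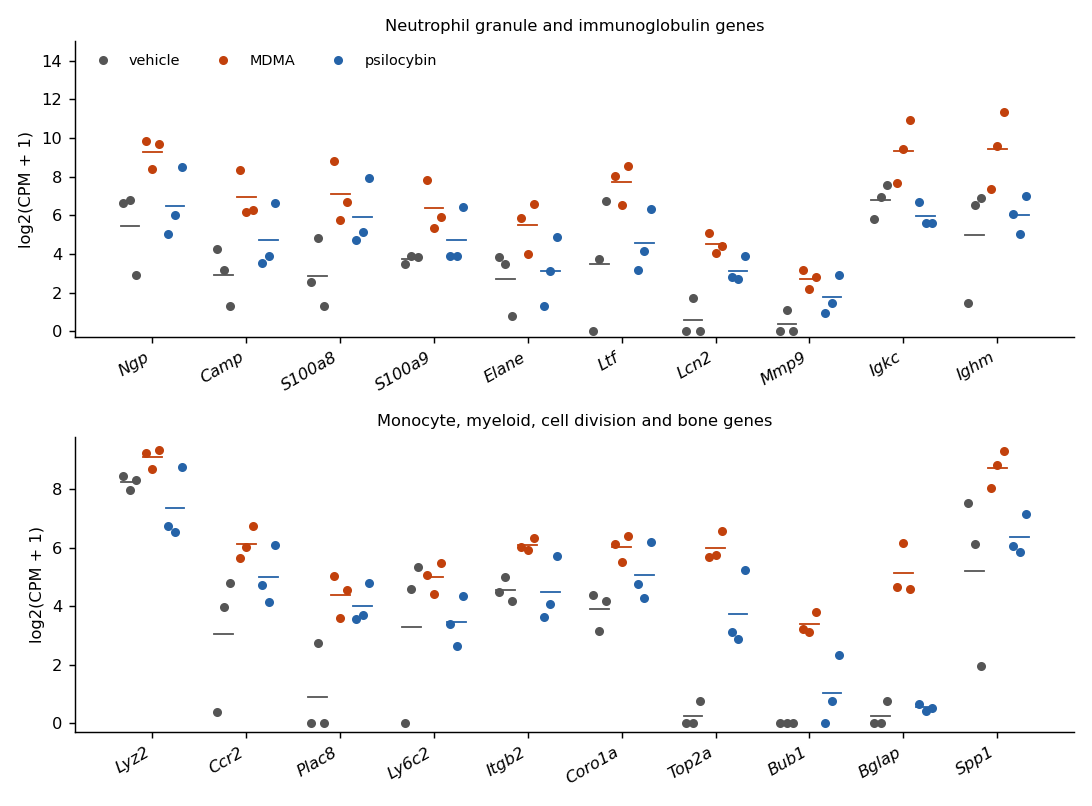
Log2(CPM + 1) per library (y axis) for 20 genes described in the text, with vehicle, MDMA and psilocybin libraries as points, in the order of their numbers from left to right, and the mean of the log values as a bar (n = 3). Ngp in MDMA libraries spans 330 to 922 CPM, above 108.1 CPM in the highest vehicle library.

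Igkc and Ighm, 2 of 5 tested immunoglobulin constant regions, were also higher in MDMA libraries, while the other tested B cell genes overlapped. The summed B cell markers overlapped too, with 1256 CPM in MDMA library 1 and 1319 CPM in vehicle library 3. Igkc, the kappa light chain constant region, stood at 200.4, 678 and 1968 CPM in MDMA and at 55.1, 122 and 190.3 CPM in vehicle libraries (2.96 ± 0.88, edgeR adjusted p = 0.456). Ighm, the heavy chain of IgM, stood at 165, 770 and 2621 CPM against 1.79, 92.2 and 117 CPM (4.08 ± 1.37, adjusted p = 0.632). In both genes MDMA library 3 was the highest and MDMA library 1 the lowest, just above the highest vehicle library. These were the 2 of 9 tested B cell genes without overlap. Cd79a, a signalling chain of the B cell receptor, overlapped at 7.845, 3.87 and 7.54 CPM against 0, 9.10 and 0 CPM, as did the B cell factor Ebf1. The count of B cell genes without overlap was 1 with DESeq2's size factors, where 1 of these genes overlapped. Igkc lies on chromosome 6, 70726435 to 70726966, and Ighm on chromosome 12, 113418558 to 113422730 (minus strand).

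Several genes of mitosis had 0 or 1 count over all vehicle libraries and were counted in every MDMA library. Of 25 listed genes 17 were tested, and 15 of these were at 0 in at least 1 vehicle library, against 40.82% of all tested genes, so that most passed the filter through the libraries where they are high. The summed list overlapped, with 362.1 CPM in MDMA library 2 and 469.8 CPM in vehicle library 3. Top2a, the topoisomerase that untangles chromosomes before mitosis, had 0, 0 and 1 counts in vehicle libraries and 197, 135 and 566 in MDMA libraries, a ratio of 405 per scaled library size (95% counting interval 72.5 to 16020). Cdk1, the kinase that starts mitosis, was at 0 in vehicle and at 10.1, 13.2 and 12.1 CPM in MDMA libraries, at least 21.95-fold higher. Bub1, a kinase of the spindle checkpoint, was at 0 against 8.35, 7.75 and 13.1 CPM, at least 19.7-fold higher. Aurka and Birc5, which act in spindle assembly and chromosome segregation, and the replication helicase subunit gene Mcm5 completed the 6 of 17 genes higher without overlap, all at 0 in at least 1 vehicle library; of all genes at 0 in a vehicle library and counted in all MDMA libraries, 20.91% were higher. None was lower. The S phase genes Mcm2, Mcm3, Pcna, Tyms and Rrm2 overlapped, and Mki67, the proliferation antigen, stood at 0, 6.83 and 143 CPM in vehicle against 33.2, 11.2 and 58.1 CPM in MDMA libraries. The list median was 1.35, and -0.56 for the 2 members counted in all 6 libraries. Nusap1, a spindle protein outside the list, was at least 51.6-fold higher.

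The promoters of the 3 genes named first in that group are shown because CCAAT boxes, to which the factor NF-Y binds, are a known feature of mitotic gene promoters. Each runs 5′ to 3′ on the gene's own strand, from 250 bases before the RefSeq start to 50 after it in GRCm38.p6. Capitals mark CCAAT or, for the opposite strand, ATTGG.
Top2a: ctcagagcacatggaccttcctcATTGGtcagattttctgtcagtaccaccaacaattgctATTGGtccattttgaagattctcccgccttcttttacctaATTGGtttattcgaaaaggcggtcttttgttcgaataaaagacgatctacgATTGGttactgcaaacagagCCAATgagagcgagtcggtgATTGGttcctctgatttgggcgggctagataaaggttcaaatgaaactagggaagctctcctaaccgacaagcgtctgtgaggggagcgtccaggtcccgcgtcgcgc
Cdk1: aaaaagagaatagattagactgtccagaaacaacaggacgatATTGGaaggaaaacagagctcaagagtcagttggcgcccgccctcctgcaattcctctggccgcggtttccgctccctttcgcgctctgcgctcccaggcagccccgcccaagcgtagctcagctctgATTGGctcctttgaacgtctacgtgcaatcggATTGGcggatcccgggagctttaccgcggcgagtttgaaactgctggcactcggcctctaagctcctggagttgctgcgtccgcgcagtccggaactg
Bub1: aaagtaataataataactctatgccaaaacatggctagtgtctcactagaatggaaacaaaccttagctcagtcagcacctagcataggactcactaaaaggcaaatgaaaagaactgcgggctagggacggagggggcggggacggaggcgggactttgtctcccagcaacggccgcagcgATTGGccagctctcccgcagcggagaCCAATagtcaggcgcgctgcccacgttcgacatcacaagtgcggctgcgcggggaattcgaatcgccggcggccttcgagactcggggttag
The windows are chr11:99024140-99024439 for Top2a, chr10:69352863-69353162 for Cdk1 and chr2:127831810-127832109 for Bub1, all on the minus strand. They hold 6, 3 and 2 matches. Of the 32851 promoters searched, all of this length, 37.4% held at least 1 match on either strand and 3.37% at least 3. Of the 25 listed cell division genes, 22 had a promoter among those searched. Of these, 19 had at least 1 match and 6 at least 3. The shares count promoters, whereas the list numbers count genes, and the difference between them was not tested. A match describes the letters only, and no binding was measured here.

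Bone matrix genes formed another group that was high in MDMA libraries. Bglap, osteocalcin of osteoblasts, had 0, 0 and 1 counts in vehicle and 96, 181 and 137 counts in MDMA libraries, a ratio of 187 (33.3 to 7393). Spp1, osteopontin of bone and activated macrophages, stood at 263, 451 and 629 CPM in MDMA and at 182, 68.3 and 2.85 CPM in vehicle libraries (2.40 ± 1.09, edgeR adjusted p = 0.9998). Ibsp, bone sialoprotein, stood at 39.2, 118.5 and 118.9 CPM against 19.1, 0 and 25.7 CPM. All MDMA values of these genes lay above all vehicle values. Of 10 tested osteoblast genes, 6 were higher without overlap (Bglap, Bglap2, Ibsp, Spp1, Sp7 and Dmp1), none was lower, and all 10 had a fitted difference above 0, with a median of 2.51. Of the 10, 7 were at 0 in a vehicle library. For the 3 counted in all 6 libraries the median was 0.85, and 1 of them (Spp1) was higher without overlap. The share higher over all tested genes was 12.7%. It was 20.91% for genes at 0 in a vehicle library and counted in all MDMA libraries, and 7.33% for genes counted in all 6. Sp7 encodes the transcription factor osterix, and Dmp1 a matrix protein of osteocytes that was at least 11.1-fold higher. Bglap and Bglap2 are neighbouring, near-identical copies, so reads may have been split between them. The count ranged from 6 to 9 over all other scalings and omissions. Outside the list, the collagenase gene Mmp13, chosen after its values were seen, had 0, 0 and 1 counts against 271, 178 and 1625.

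Genes of secreted matrix factors were among those counted in all 6 libraries with the smallest p. They are named by that rule and are not members of the fibroblast list. Serpinf1, which encodes the secreted factor PEDF, stood at 760, 572 and 635 CPM in MDMA and at 108.4, 242 and 149.7 CPM in vehicle libraries (1.98 ± 0.57, edgeR adjusted p = 0.456). Adamts2, the protease that trims procollagen, stood at 224, 216 and 255 CPM against 39.0, 74.0 and 47.8 CPM (2.11 ± 0.67, adjusted p = 0.518). In both genes the lowest MDMA library lay well above the highest vehicle library. In the fibroblast list, 14 of 17 tested genes had fitted differences above 0. Mgp, Dcn and Lum, genes of matrix Gla protein, decorin and lumican, were the 3 higher without overlap, but none of the 17 kept this with DESeq2's size factors. The share higher was 12.7% over all tested genes and 7.33% over those counted in all 6 libraries. Dcn shows how narrow the gap was, with 1259, 2089 and 1356 CPM against 312, 569 and 1198 CPM. Col1a1, a chain of type I collagen, overlapped, with the highest vehicle value in library 3: it stood at 1891, 2354 and 6007 CPM in MDMA and at 38.1, 702 and 2101 CPM in vehicle libraries. Without vehicle library 3, 13 of 20 collagen genes lay above the vehicle libraries, against 2 with it. The number over all tested genes rose too, to 2597 of 12890 without that library from 1639 with it.

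Among genes counted in all 6 libraries, the lower genes with the smallest p were Acad8, Ripk2, Cab39l, Arsg, Dhx57, Gpm6a, Diaph2 and Zfp12. Acad8, a mitochondrial enzyme of valine breakdown, stood at 153, 115 and 136 CPM in MDMA and at 477, 333 and 663 CPM in vehicle libraries (log2 difference of -1.87 ± 0.57, edgeR adjusted p = 0.476). Ripk2, the kinase downstream of NOD receptors, stood at 25.1, 21.3 and 35.0 CPM against 216, 62.6 and 242 CPM (-2.67 ± 0.84, adjusted p = 0.521). Both sets of MDMA values were tight and lay below every vehicle value. Cab39l, an adaptor of the LKB1 kinase, stood at 484, 337 and 474 CPM against 1821, 1030 and 1089 CPM (-1.61 ± 0.52). Gpm6a, a membrane glycoprotein of neurons and epithelia, stood at 366, 398 and 347 CPM against 1054, 759 and 1491 CPM (-1.57 ± 0.52). For Dhx57 and Zfp12 vehicle library 3 stood at 447 and 364 CPM, whereas vehicle libraries 1 and 2 stood between 30.7 and 82.5 CPM.

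Choroid plexus genes were lower in MDMA libraries where the groups separated. Clic6, a chloride channel protein of this epithelium, stood at 262, 224 and 283 CPM in MDMA and at 442, 655 and 796 CPM in vehicle libraries (-1.30 ± 0.53, edgeR adjusted p = 0.832). Krt18, a keratin of simple epithelia, stood at 96.4, 75.9 and 53.3 CPM against 456.5, 129 and 98.4 CPM, and Kl, the anti-ageing hormone klotho, at 412, 539 and 305 CPM against 1164, 580 and 609 CPM. These 3 of 14 tested genes were lower without overlap, none was higher, and the median was -0.95. All 14 were counted in all 6 libraries, and 4.88% of all genes so counted were lower. The number lower was 5 with DESeq2's size factors and 1 with unscaled or thinned libraries. Ttr, the transthyretin gene and the hallmark of this epithelium, overlapped widely at 20110, 12820 and 4532 CPM in MDMA and 50270, 21890 and 2720 CPM in vehicle libraries.

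Small numbers of energy metabolism genes separated the groups, to be read against 12.7% higher and 2.9% lower over all tested genes. For genes counted in all 6 libraries these shares were 7.33% and 4.88%. Of 28 nuclear genes of oxidative phosphorylation, 3 were lower without overlap (Uqcrc1, Ndufv1 and Atp5a1), none was higher, and the median was -0.48. Without vehicle library 2, 3 were higher and 4 lower. Uqcrc1, a core subunit of complex III, stood at 411.5, 345 and 379 CPM in MDMA and at 1873, 573.5 and 690 CPM in vehicle libraries (-1.47 ± 0.60, edgeR adjusted p = 0.840). The mitochondrial genome itself gave none in either direction. Of 34 cytosolic ribosomal protein genes, 1 was higher (Rpl30) and none lower. Among glycolysis and hypoxia genes, Pfkp and Pgam1 were lower and Adm was higher, and without vehicle library 2, 6 were higher and 4 lower.

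**Figure D4:**
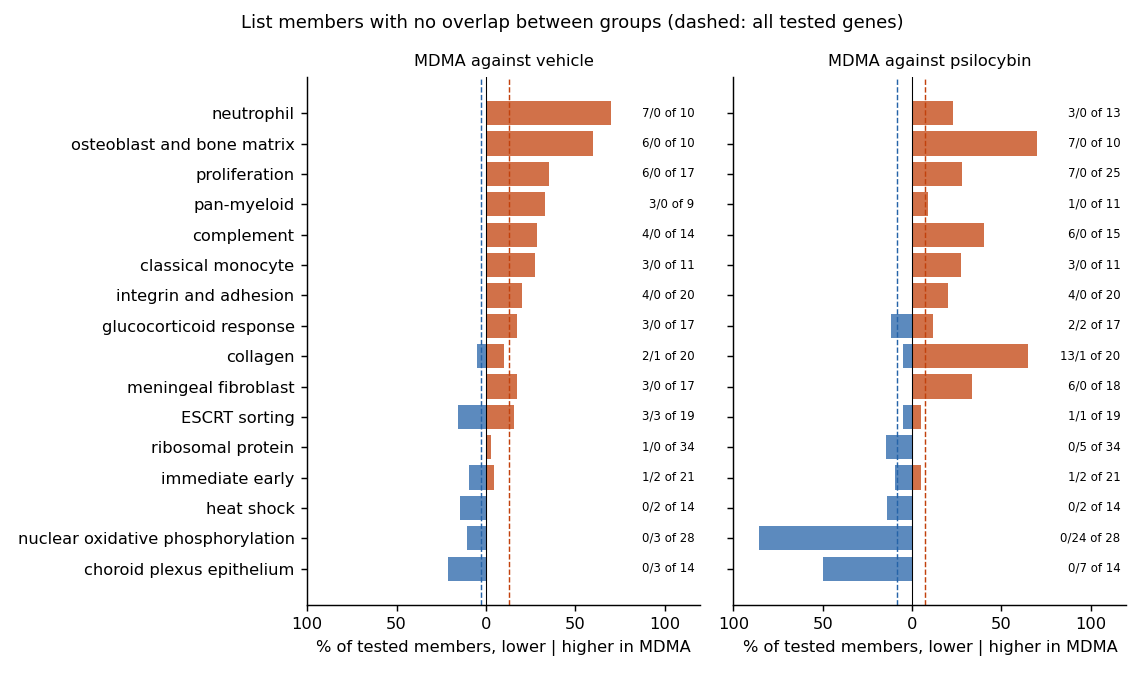
Percent of each list's tested genes (x axis) whose MDMA libraries all lay above or all below the vehicle libraries and, separately, the psilocybin libraries, for 16 lists; dashed lines give the same share over all tested genes (12.7% and 2.9% against vehicle). Neutrophil and osteoblast genes reach furthest to the higher side against vehicle, with 7 of 10 and 6 of 10 genes.

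Small numbers of stress and activation genes separated the groups, to be read against 12.7% higher and 2.9% lower over all tested genes. For genes counted in all 6 libraries these shares were 7.33% and 4.88%. In the immediate early list, Ier2 and Atf3 were lower and Egr3 was higher among 21 tested genes, with a median of 0.003. Atf3, a stress-induced transcription factor, stood at 205, 177 and 164 CPM in MDMA and at 307, 242 and 373 CPM in vehicle libraries. Of 14 heat shock genes, Hsph1 and Dnajb1, both cochaperones, were lower, but none was with unscaled library totals or after thinning. Fkbp5, the glucocorticoid-induced cochaperone of the glucocorticoid receptor, stood at 68.6, 185 and 238 CPM against 24.7, 119.5 and 41.4 CPM and overlapped. Sult1a1, Pdk4 and Zbtb16 were the 3 of 17 glucocorticoid response genes higher without overlap, and each was at 0 in 1 vehicle library. Of all genes at 0 in a vehicle library and counted in all MDMA libraries, 20.91% were higher. Tsc22d3, another glucocorticoid target, stood at 990, 1231 and 1125 CPM against 597, 876 and 1436 CPM, and its difference changed sign with DESeq2's size factors.

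Inflammatory and immune receptor lists held few genes without overlap, and their shares are to be read against 12.7% higher and 2.9% lower over all tested genes. At 0 in a vehicle library were 8 of 14 tested complement, 7 of 14 chemokine and 6 of 15 cytokine and inflammasome genes. So were 5 of 20 adhesion, 9 of 22 interferon-stimulated and 5 of 11 class II genes. The share higher was 20.91% for all genes at 0 in a vehicle library and counted in all MDMA libraries. Ccr1, a chemokine receptor of monocytes and neutrophils, was at 0 in vehicle and at 17.0, 31.4 and 22.1 CPM in MDMA libraries, at least 42.1-fold higher. Ccr2 and Ccl4 were the other chemokine system genes without overlap, 3 of 14 in all. Clec12a, an inhibitory lectin of myeloid cells, was at 0 against 32.1, 5.42 and 30.3 CPM, at least 48.4-fold higher. Nlrp3, the inflammasome sensor, was at least 13.8-fold higher, while Il1b overlapped at 23.8, 23.2 and 15.1 CPM against 24.7, 3.41 and 2.85 CPM, and the cytokine gene Tgfb1 was lower. Of 14 complement genes 4 were higher, among them C3ar1, the receptor for C3a, with 1 count against 175 (ratio 78.9, 14.0 to 3135). In the adhesion list 4 of 20 genes were higher: Itgam, Itgb2, Itga5 and Itga6, all integrin chains. Itgb2, the partner chain of CD11b, stood at 64.5, 59.6 and 78.55 CPM against 21.1, 30.7 and 17.1 CPM. Of 22 interferon-stimulated genes, Zbp1 was higher and Ifit3 lower. In the class II list, Ciita had 59 counts against 1 (26.6, 4.59 to 1069), and H2-Ab1 overlapped.

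Other immune cell lists held few tested genes and mostly low counts. Of 8 listed platelet genes 3 were tested (Ppbp, Pf4 and Itga2b). All of these were at 0 in a vehicle library, so they passed the filter through the MDMA libraries, and all lay higher there. Ppbp, a platelet chemokine precursor, was at 0 in vehicle and at 4.30, 6.197 and 53.8 CPM in MDMA libraries, at least 53.2-fold higher, with MDMA library 3 far above the others. The dendritic cell genes Cd209a, Irf8 and Ccr7 (3 of 5 tested) and the mast cell genes Kit and Hdc (2 of 6) were also higher. Of the tested genes, 4 of 5 dendritic cell and 6 of 6 mast cell genes were at 0 in a vehicle library. Of all genes at 0 in a vehicle library and counted in all MDMA libraries, 20.91% were higher. Cd209a, a lectin of monocyte-derived dendritic cells, stood at 29.1, 60.0 and 27.3 CPM against 0, 7.965 and 0 CPM. The summed platelet, dendritic, mast cell, T and NK cell and border macrophage markers nevertheless overlapped between the groups. Border macrophage markers reached 2932, 1764 and 1450 CPM in MDMA and 2848, 2108 and 2568 CPM in vehicle libraries. Of 10 tested genes of that list 3 were higher: Pf4, Clec12a and the scavenger receptor gene Stab1. Nkg7, a granule protein of cytotoxic lymphocytes, was the 1 of 11 tested T and NK cell genes higher. Nr4a1, the nuclear receptor on which non-classical monocytes depend, overlapped at 579.5, 349 and 532 CPM against 722.4, 724 and 470 CPM.

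Of 18 vessel genes 2 were lower and none higher, but the direction depended on the scaling: 2 were higher and 1 lower with unscaled totals, and 2 and 2 after thinning. Without vehicle library 1, 2 were higher and 3 lower, as without vehicle library 2 or 3. Acta2, smooth muscle actin of mural cells, stood at 625, 570 and 633 CPM in MDMA and at 1078, 777 and 972 CPM in vehicle libraries, and Cdh5, the cadherin of endothelial junctions, at 71.1, 82.1 and 85.2 CPM against 89.9, 126 and 212 CPM. None of 8 pineal gland or 9 Schwann cell genes separated the groups, and 1 of 12 neural and glial genes (Slc1a3) was higher. Among 16 genes of the unfolded protein response 1 was higher, Ern1, the sensor IRE1, at least 36.2-fold. Of 17 phagocytosis and lysosome genes 3 were higher (Cd68, Ctsl and Gpnmb) and 1 lower (Ctsd, cathepsin D, at 394, 379 and 379 CPM against 483, 489 and 441 CPM). Of 28 histone and chromatin modifiers 3 were higher (Kdm6a, Ezh2 and Hdac4), and of 22 tested long non-coding RNAs 3 (Rian, Dleu2 and Ftx). Both counts lie near the share of all tested genes, 12.7% higher. With DESeq2's size factors 1 chromatin modifier was higher and 1 lower.

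Endosomal sorting genes went both ways, with 3 of 19 higher and 3 lower. Ubap1, an ESCRT-I subunit, had the smallest p of all genes counted in every library: it stood at 83.5, 62.4 and 115.7 CPM in MDMA and at 0.298, 3.41 and 2.14 CPM in vehicle libraries (5.57 ± 1.37, edgeR adjusted p = 0.456). These vehicle values rest on 1, 3 and 3 counts. Tsg101, the ESCRT-I core subunit, was lower at 85.8, 146 and 97.1 CPM against 199, 175 and 272 CPM. Kdm6a, an X-linked histone demethylase, had 2 counts in vehicle and 887 in MDMA libraries, a ratio of 200 (55.2 to 1654). In the serotonin and monoamine list, which bears on the drug's known targets, 10 of 30 genes were tested and only Slc18a1, a vesicular monoamine transporter, was higher, with 3 against 60 counts (9.02, 2.94 to 45.0). The serotonin receptor gene Htr2b was not tested, with 1 count in vehicle and 36 in MDMA libraries, none of them in MDMA library 2. None of 17 clock genes separated the groups.

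Of the 792 tested non-coding genes and pseudogenes, 90 (11.36%) were higher and 22 (2.778%) lower without overlap, against 12.81% and 2.911% of coding genes. Among the 314 counted in all 6 libraries, 12 (3.822%) were higher and 20 (6.369%) lower, whereas coding genes leaned the other way (7.479% and 4.822%). The difference between these shares was not tested. The lean of the genes counted in all 6 libraries, most of them coding, turned with DESeq2's size factors, to 443 higher and 526 lower. The non-coding genes higher with the smallest p were Gm42659, Gm37558 and 2410006H16Rik. Gm42659 stood at 17.5, 98.8 and 5.69 CPM in MDMA and at 1.49, 3.41 and 1.43 CPM in vehicle libraries (4.29 ± 1.68, edgeR adjusted p = 0.792), so MDMA library 2 carried most of it. Those lower were Gm38071, Gm21691 and Gm8228. Gm38071 stood at 3.80, 0.775 and 1.005 CPM against 42.0, 13.7 and 11.4 CPM (-3.56 ± 1.57). At 0 in all vehicle libraries were C130021I20Rik, Gm14964, Gm42576 and Gm7240, at least 31.7-fold, 23.9-fold, 19.9-fold and 15.6-fold higher in MDMA libraries. No tested gene was at 0 in all MDMA libraries, and the untested Gm2077 and Gm15653, with 1 count in each vehicle library and 0 in MDMA, were too low for any fold. Whether reads came from these genes or from overlapping genes on the opposite strand is uncertain, because no strand setting of the counting is stated.

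DESeq2, run as an alternative on the same counts, called 124 genes higher (0.962%) and 0 lower. Of these, 113 were at 0 in a vehicle library and 60 in all 3. The 11 counted in every library were Ubap1, Ankra2, G2e3, Dock11, Atad2, Lhx9, Iglv1, Ntrk3, Prmt8, Camp and Zfp729a. Dock11, an activator of the GTPase Cdc42 in blood cells, stood at 47.8, 89.5 and 45.9 CPM in MDMA and at 0.298, 3.41 and 3.56 CPM in vehicle libraries (DESeq2 adjusted p = 0.0228). Mmp13 had the smallest DESeq2 adjusted p, 9.69e-05. Of the 124 genes, 121 lay above the vehicle libraries in the psilocybin group as well, without overlap. Over all tested genes this held for 1874 of 12890. The 124 genes were selected against the same vehicle libraries, where most were at or near 0, so the selection largely set that number. Limma voom called 0 genes, with 1643 at an unadjusted p under 0.05.

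The psilocybin libraries, 3 from mice stressed in the same way and given psilocybin, share the vehicle libraries as controls. Both drug groups lay above all vehicle libraries at 1214 tested genes and below at 200, a count that the shared controls help to set. A direct test of MDMA against psilocybin uses no vehicle library, and there too edgeR called no gene (0 of 14137, 0.0%, with 953 at an unadjusted p under 0.05). DESeq2 called 17 higher and 6 lower. Without overlap, 1055 genes (7.46%) were higher and 1225 (8.67%) lower in MDMA than in psilocybin libraries.

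Bone matrix and collagen genes stood higher in MDMA than in psilocybin libraries. Bglap had 2, 1 and 2 counts in psilocybin libraries against 96, 181 and 137, a log2 difference of 6.28 ± 0.72 (edgeR adjusted p = 0.168, the smallest of all genes). Ibsp stood at 0.597, 3.15 and 8.09 CPM after psilocybin (4.49 ± 0.79) and Spp1 at 65.6, 56.7 and 142 CPM (2.34 ± 0.47), below every MDMA library. In all, 7 of 10 osteoblast genes and 13 of 20 collagen genes were higher in MDMA without overlap, with medians of 1.81 and 1.04. Igkc stood at 102.0, 48.3 and 48.3 CPM and Ighm at 65.9, 31.2 and 127 CPM in psilocybin libraries, below all MDMA libraries (3.84 ± 0.78 and 3.98 ± 0.95). DESeq2's 17 higher genes included Bglap, Bglap2, Ibsp, Spp1, Col1a1, Col1a2, Mmp13, Igkc, Ighm, Iglc1 and Jchain.

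Neutrophil genes were less clearly apart from psilocybin, because psilocybin library 3 was high. Ngp stood at 31.3, 63.4 and 355 CPM there, the last above MDMA library 2. Of 13 neutrophil genes tested, 3 were higher in MDMA without overlap (Ltf, Lcn2 and Csf3r), with a median of 1.69. The count was 10 without psilocybin library 3 and 8 without MDMA library 2. Cell division genes gave 7 of 25 higher, median 1.40, and 20 without MDMA library 2.

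Oxidative phosphorylation genes went the other way. Of 28 genes, 24 were lower in all MDMA than in all psilocybin libraries, with a median of -1.003, and 22 to 26 over the other scalings and omissions. Ndufa1, a complex I subunit, stood at 65.8, 22.1 and 11.1 CPM in MDMA and at 245.5, 148 and 127 CPM in psilocybin libraries (-2.40 ± 0.62, edgeR adjusted p = 0.693). Choroid plexus genes followed, with 7 of 14 lower and a median of -1.02, or 13 without MDMA library 2, and their sum was 120800, 59820 and 62860 CPM after psilocybin. The vehicle libraries spanned both drug groups for the oxidative phosphorylation sum, at 10650, 5725 and 3409 CPM against 5561, 4685 and 3812 CPM with MDMA and 8973, 8154 and 6848 CPM with psilocybin. Choroid plexus sums were likewise lower in all MDMA than in all psilocybin libraries, and their part in this difference was not tested.

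**Figure D5:**
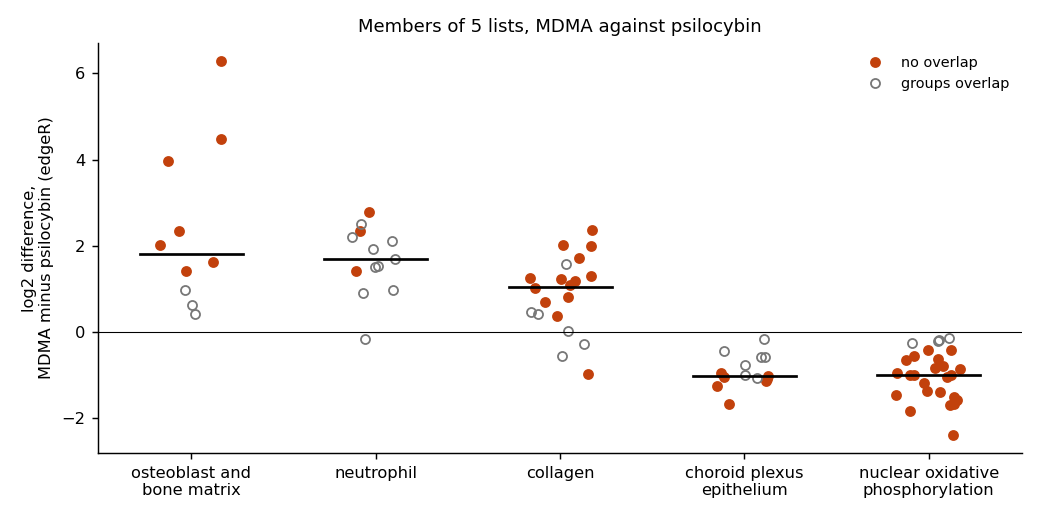
Log2 difference of MDMA minus psilocybin (y axis) for each tested member of 5 lists; filled points are genes without overlap between the 3 MDMA and 3 psilocybin libraries and lines are list medians. The osteoblast genes centre on 1.81 and the oxidative phosphorylation genes on -1.003.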

How the data were processed

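The deposited values were whole-number counts of reads for each Ensembl gene, with no normalization. The submitters' processing notes name fastp 0.23.2, STAR 2.7.5c, featureCounts 2.0.1, edgeR 3.42.4 and mm10; they state no annotation release or strand setting. Groups came from sample titles, and the series table matched the stressed libraries' own files. A further 3 columns of that table belong to no sample used here and were left out.

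Names, biotypes and positions came from GENCODE vM21 (55141 of 55401 identifiers), promoters from RefSeq (GRCm38.p6). TMM factors were computed over the 9 stressed libraries. After filterByExpr, the quasi-likelihood test of edgeR 4.0.16 (R 4.3.3) compared 3 libraries with 3, with no replicate block and Benjamini-Hochberg adjustment at 0.05. Standard errors were derived from the test statistic. No overlap means that all 3 libraries of a group lie above or below all 3 of the other. For a gene at 0 throughout a group, the lower bound sets that group to 3 counts in all; with 1 to 3 counts the ratio has an exact (Clopper-Pearson) 95% interval. The edgeR fit was tested on simulated data with 200 of 12890 genes changed by 3 on the log2 scale: 5 were recovered at the spread of these libraries (with 5 of the 200 of the wrong fitted sign) and 196 at a dispersion of 0.1.

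The genes named were those with the smallest p without overlap among genes counted in all 6 libraries (mean of at least 20 CPM, up to 8 each way; 3 each way for non-coding genes). Added were genes at 0 in a whole group with the most counts in the other group's lowest library (6 coding and 4 non-coding), from each of 41 lists the 4 members without overlap that had the lowest p, and 11 genes followed whatever their values (Ly6c2, Ccr2, Cx3cr1, Nr4a1, Il1b, Fkbp5, Tsc22d3, Htr2b, S100a8, Mrc1 and H2-Ab1). The comparison, lists and rule were chosen with earlier results of these data known. Alternatives were other scalings, no filter, DESeq2 1.42.0, limma 3.58.1 voom, all 9 libraries, a replicate block and leaving out libraries.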

Additional observations from a re-analysis of the deposited data

Results flagged for a closer look

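Col5a2, a fibrillar collagen gene, was the only 1 of 12890 tested genes with all MDMA libraries above and all psilocybin libraries below all vehicle libraries. It stood at 105.0, 122 and 199.8 CPM in MDMA, at 98.0, 74.0 and 84.8 CPM in vehicle and at 72.2, 42.0 and 68.8 CPM in psilocybin libraries, so that the MDMA mean exceeded the vehicle mean by 56.69 CPM while the psilocybin mean lay below it. MDMA library 1 was close to vehicle library 1. The opposite directions against vehicle share the vehicle libraries and were not tested, and the direct difference of MDMA from psilocybin was 1.22 ± 0.36 on the log2 scale (SE, edgeR adjusted p = 0.693).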

How the results depend on the processing

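No gene passed in MDMA against vehicle with edgeR under DESeq2's size factors, TMM over the 6 libraries, all 9 stressed libraries, with any library left out, or with limma voom with or without quality weights, with 329 to 3902 genes at an unadjusted p under 0.05. Without the low count filter 13 genes passed (7 higher and 6 lower, 8 counted in all 6 libraries, 2 at 0 in a vehicle library), among them Ngp, Igkc and Ighm. With DESeq2 124 passed (11 and 113), and 431 genes had no adjusted p. In MDMA against psilocybin 384 genes passed without the filter, 23 with DESeq2 and 1 (Bglap) with voom quality weights. The cause of these differences was not tested. With a replicate block, 0 genes passed in MDMA against vehicle (417 at an unadjusted p under 0.05) and in MDMA against psilocybin (962). Same-numbered MDMA and vehicle libraries did not deviate together (correlations of 0.0859, -0.148 and -0.0988), so the numbers were not taken to pair them.

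The difference in genes detected, 9402, was 5812 after thinning, 6428 for genes with at least 5 counts and 4948 for coding genes, and 8359 to 10920 with a library left out. Fewer libraries make a lack of overlap easier by construction. With 1 library left out, 1869 to 4348 genes were higher and 465 to 1324 lower without overlap, and 676 to 1434 and 463 to 1038 among genes counted in all 6. Without both vehicle 1 and vehicle 3 these counts were 4159, 3630, 2253 and 2039. Of 123 named genes with a fitted difference, 19 values passed the threshold under an alternative (16 with DESeq2 and 3 without the filter) and 3 genes changed sign. Tsc22d3 was -0.0106 with DESeq2's size factors, -0.0269 with DESeq2 and -0.0518 to 0.599 with a library left out. Mrc1, a macrophage mannose receptor gene, turned from -0.65 to 2.30 with voom, 2.87 with quality weights, 3.4 with a replicate block, 3.63 without both vehicle libraries, and -1.24 to 4.66 with 1 library left out; vehicle library 3 stood at 264 CPM and the other vehicle libraries at 0.596 and 4.55. H2-Ab1 was 0.102 without both.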

Other observations

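The immunoglobulin transcripts came from few variable segments in some libraries, a feature chosen after its values were seen. In MDMA library 3, Igkv4-68 held 4540 of 5777 counts over kappa variable segments (78.6%, exact 95% interval 77.5 to 79.6), and Ighv1-61 held 1883 of 2990 counts over heavy chain segments (63.0%, 61.2 to 64.7). MDMA library 2 had another leading heavy chain segment, Ighv6-3, with 706 of 920 counts (76.7%, 73.9 to 79.4). MDMA library 1 was more even: 31 kappa segments were counted, and the leading one, Igkv19-93, held 26.2% of 465 counts (22.3 to 30.5).

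In vehicle libraries the kappa shares rest on few counts. Igkv6-17 held 135 of 136 counts (99.3%, 96.0 to 99.98) in vehicle library 1, and Igkv12-44 held 165 of 168 counts (98.2%, 94.9 to 99.6) in vehicle library 3, whereas in vehicle library 2 the leading Igkv8-30 held 31 of 66 (47.0%, 34.6 to 59.7). No kappa or heavy chain segment led in more than 1 of the 3 MDMA libraries. Intervals cover counting error only, and near-identical segments can share reads, which leaves the assignment to a segment uncertain.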
